A study of Mus musculus with 12 samples.

Results

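The piRNA pathway genes described here were 10 of the 21859 genes in the expression table, taken by symbol: *Piwil1*, *Piwil2*, *Piwil4*, *Ddx4*, *Mael*, *Tdrd1*, *Tdrd9*, *Mov10l1*, *Tdrkh* and *Asz1*. All 10 lay among the 16932 genes that passed the filter on low expression, which kept genes with a log2 mean RPM (reads scaled to library size) above -1. RNA came from GFRa1+/KIT- spermatogonia, a sorted fraction enriched for undifferentiated spermatogonia, of adult male mice. The left testis had been fixed to the abdominal wall by surgery (cryptorchid), and the untreated right testis of operated mice served as control. Cells were collected on day 10 after surgery, and sequenced from 5 control and 7 cryptorchid libraries made by Smart-seq2, a protocol that amplifies full-length cDNA from few cells. The sort used an EGFP reporter driven from the *Gfra1* locus, so both groups carried the GFRa1-EGFP allele, although the labels give the genotype as WT for control and Cryptorchid for the operated side. Control testes were digested at a lower temperature than cryptorchid testes, so temperature of digestion and group cannot be told apart. Which libraries share a mouse was not stated, so *P*-values measure the spread between these libraries.

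PIWI proteins are Argonaute family members that bind piRNAs, small RNAs of the germ line that silence transposons by cutting their transcripts and by directing DNA methylation to their promoters. Precursor transcripts are bound by the helicase MOV10L1, cut on the surface of mitochondria, loaded onto a PIWI protein and trimmed there, and Tudor domain proteins bind methylated arginines of PIWI proteins to assemble these steps in the cytoplasmic granules called nuage. In the mouse, PIWIL2 (MILI) is present from fetal germ cells to spermatids, PIWIL4 (MIWI2) is known chiefly from fetal prospermatogonia, and PIWIL1 (MIWI) from meiotic and haploid cells, where A-MYB, the product of *Mybl1*, switches on piRNA precursors and several pathway genes. The comparison asked which of these genes differed in spermatogonia of the testis fixed to the abdominal wall.

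RefSeq promoters (GRCm38.p6, the build of mm10) were found for 9 of the 10 genes, as 12 windows of the 250 bases upstream of an annotated start. The E-box CACGTG, a palindrome bound by several basic helix-loop-helix factors, was searched on both strands, and stood in 7 of the 12 windows, against 6.02% of all 32851 promoter windows of that length. The motif holds a CG, and 10 of the 12 windows held 8 to 31 CG dinucleotides, against a median of 6 over all windows. The part of this richness in the count was not tested. The 7 windows belonged to 6 genes, *Mael*, *Piwil1*, *Tdrd9*, *Ddx4*, *Mov10l1* and *Tdrd1*. For *Tdrd1* the windows at chr19:56825959-56826208 and chr19:56826025-56826274 overlap and hold the same E-box, so the 7 windows are not independent. The A-MYB core (CAACNG or TAACNG, both strands) stood in 4 of the 12 windows, against 43.1% of all windows, and the E2F core GCGGGA in 2 of 12, against 16.9%. Each motif was searched alone, and matches of different motifs may overlap. Windows of 5 genes are shown 5′ to 3′ with each E-box in capitals: both genes with a pair of E-boxes, a germ cell helicase gene (*Ddx4*), the precursor helicase gene (*Mov10l1*), and *Tdrkh*, which had the largest difference between groups among the members and holds no CACGTG in this window. They lie at chr5:128735996-128736245 (plus strand, inside the annotated *Piwil1* gene), chr12:111971309-111971558 (plus, *Tdrd9*), chr13:112652311-112652560 (minus, *Ddx4*), chr15:88982744-88982993 (plus, *Mov10l1*) and chr3:94412994-94413243 (plus, *Tdrkh*). A match describes letters in a window and not a bound site.
*Piwil1*: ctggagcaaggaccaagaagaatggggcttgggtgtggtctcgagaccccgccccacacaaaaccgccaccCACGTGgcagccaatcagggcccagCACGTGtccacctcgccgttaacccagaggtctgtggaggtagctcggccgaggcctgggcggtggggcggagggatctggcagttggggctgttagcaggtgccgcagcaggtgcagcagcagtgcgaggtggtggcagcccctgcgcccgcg
*Tdrd9*: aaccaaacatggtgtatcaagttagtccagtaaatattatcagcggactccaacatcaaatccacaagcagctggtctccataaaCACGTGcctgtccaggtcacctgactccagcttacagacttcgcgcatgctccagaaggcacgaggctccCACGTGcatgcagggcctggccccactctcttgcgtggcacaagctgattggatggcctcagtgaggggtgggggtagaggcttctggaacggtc
*Ddx4*: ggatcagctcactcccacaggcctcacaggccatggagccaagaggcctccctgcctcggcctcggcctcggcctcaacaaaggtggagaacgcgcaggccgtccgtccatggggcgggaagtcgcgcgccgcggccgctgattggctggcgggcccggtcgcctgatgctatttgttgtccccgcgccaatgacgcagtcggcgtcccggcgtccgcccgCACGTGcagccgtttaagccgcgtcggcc
*Mov10l1*: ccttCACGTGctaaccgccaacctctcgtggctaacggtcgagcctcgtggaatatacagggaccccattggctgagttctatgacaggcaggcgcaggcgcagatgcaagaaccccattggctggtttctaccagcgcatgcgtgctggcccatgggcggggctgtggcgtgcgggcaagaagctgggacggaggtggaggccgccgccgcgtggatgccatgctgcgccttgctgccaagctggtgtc
*Tdrkh*: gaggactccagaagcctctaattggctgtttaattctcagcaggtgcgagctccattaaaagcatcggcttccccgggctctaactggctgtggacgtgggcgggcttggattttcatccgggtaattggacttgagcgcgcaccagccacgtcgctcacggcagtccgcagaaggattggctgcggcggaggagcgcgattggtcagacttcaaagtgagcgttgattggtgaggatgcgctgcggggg

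Reads on genes numbered 4511730 to 24345368 (median 7603202) in the control libraries and 3306771 to 20027902 (median 4611830) in the cryptorchid libraries. Replicates 1 to 3 (set 1, 3 control and 3 cryptorchid libraries) stood apart from replicates 4 and above (set 2, 2 control and 4 cryptorchid libraries). In set 1, 74.5 to 94.0% of the reads behind RPM fell on genes, and in set 2 94.8 to 99.9%. Depth also differed by set, with 6800360 to 24345368 reads on genes in set 1 and 3306771 to 5481947 in set 2. What the sets are was not stated. *Gfra1*, which defines the sort, was read in every library, at a log2 RPM of 7.88 ± 0.88 (SD, *n*=5) in control and 8.40 ± 0.70 (*n*=7) in cryptorchid cells. The 12 genes of the undifferentiated spermatogonia list, none of them called, summed to 1180 to 1766 RPM in control and 1338 to 2068 RPM in cryptorchid libraries. *Kit* stood at 4.49 ± 0.63 and 4.94 ± 0.57, the meiotic gene *Sycp3* at 6.45 ± 1.0 and 7.09 ± 0.73, the Sertoli cell gene *Sox9* at 0.92 ± 1.0 and 1.07 ± 0.94, and the Leydig cell gene *Star* at 3.33 ± 0.48 and 3.88 ± 1.24. Of the 8 differentiating spermatogonia genes, *Kit* among them, 3 had a higher mean in cryptorchid libraries (median log2 difference -0.19). They summed to 314 to 956 RPM in control and 355 to 915 RPM in cryptorchid libraries. Of these 8, 1 was called higher and 1 lower, against 3.56% and 2.36% of all genes tested. Of the 6 Leydig cell genes 3 passed the filter and none was called. All 6 summed to 8.64 to 15.5 RPM and 6.18 to 47.8 RPM. The spermatid gene *Prm1* stood at 7.61 ± 1.14 in control and 5.20 ± 2.09 in cryptorchid libraries. All 10 genes of the spermatid list had a lower mean in cryptorchid libraries, and 6 of 10 were called lower, against 2.36% of all genes tested. Their summed levels were 764 to 4116 RPM in control and 40.7 to 2555 RPM in cryptorchid libraries. The 12 spermatocyte genes, none of them called, summed to 745 to 2107 RPM and 686 to 2409 RPM. The 8 Sertoli cell genes, none of them called, summed to 20.7 to 66.5 RPM (median 23.1) in control and 15.5 to 72.6 RPM (median 49.2) in cryptorchid libraries, with 6 of 8 at a higher mean and a median difference of 0.68 on the log2 scale. Their part in the values of the members was not tested. In such bulk samples, fewer cells of a type and less RNA per cell cannot be told apart.

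None of the 10 piRNA pathway genes was called between control and cryptorchid spermatogonia by the main test, which left the libraries unpaired. *Tdrkh* was called lower under some alternatives, among them a block on replicate number. A gene was called at a 2-fold difference and an unadjusted *P*-value under 0.05 (limma). By that rule 0 of 10 members were called higher, against 3.56% of all genes tested, and 0 of 10 were called lower, against 2.36%. At an unadjusted *P*-value under 0.05 and any fold, 0 of 10 passed in the main test, against 9.48% of all genes. *Tdrkh* was just above that threshold (limma, unadjusted *P*=0.0511), and 1 to 3 members passed under several alternatives. At a Benjamini-Hochberg adjusted *P*-value under 0.05 over all genes, again 0 of 10 passed, against 0.0118%, which is 2 of the 16932 genes. The log2 differences (cryptorchid minus control) ran from -0.85 for *Tdrkh* to 0.66 for *Piwil4*, with a median of 0.02 over the members beside 0.10 over all genes tested. There were 5 members above 0 and 5 below. The groups overlapped for every member. The share of all genes whose groups overlap was not counted, so overlap cannot be read as a trait of these members. Exact two-sided rank sum tests of the single members gave *P*-values of 0.149 to 1. The 95% interval of the difference lay within 2-fold either way for 6 of the 10 (*Piwil2*, *Mael*, *Tdrd1*, *Tdrd9*, *Mov10l1* and *Asz1*), against 25.3% of all genes, and these 6 were among the more highly expressed genes, at or above percentile 94.1 of mean level. For the other 4 a 2-fold difference lay inside the interval.

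**Figure D1:**
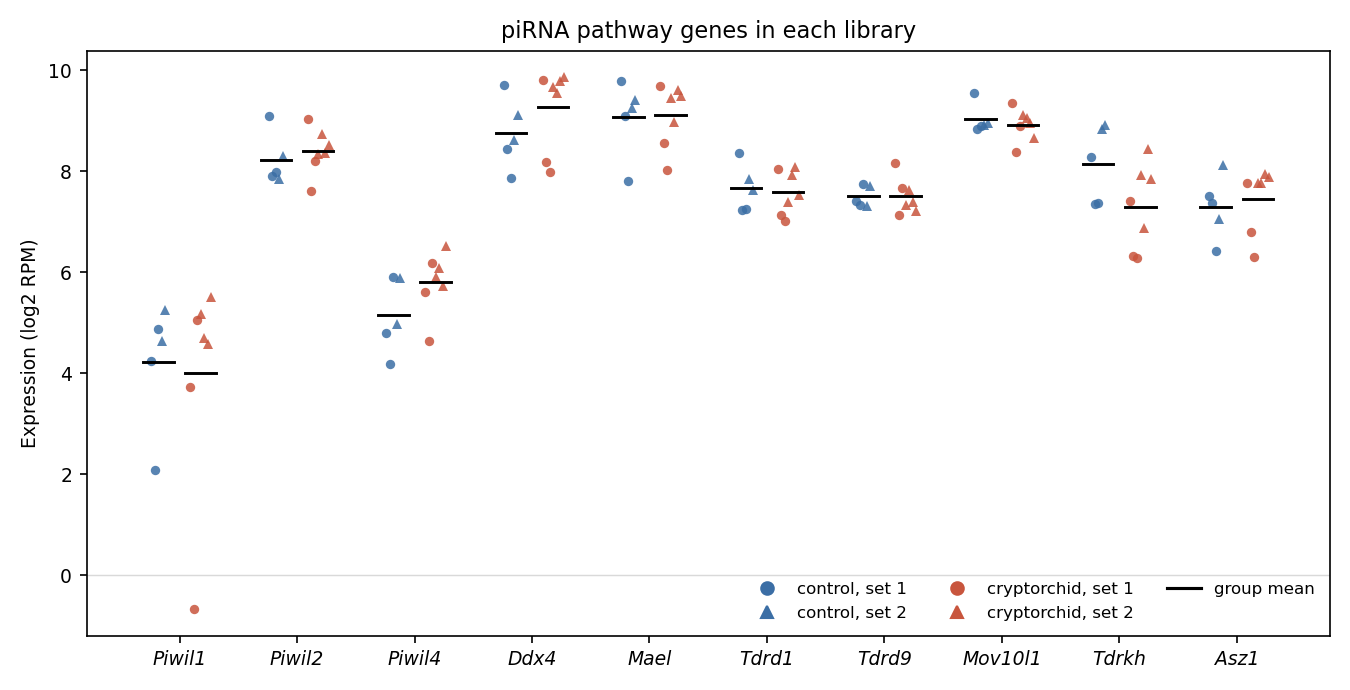
Expression of the 10 genes (y axis, log2 RPM) in each of 5 control and 7 cryptorchid libraries, with circles for set 1, triangles for set 2 and black bars for group means. The groups overlap for every gene, and the lowest point is *Piwil1* in cryptorchid library 2, at -0.67.

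**Figure D2:**
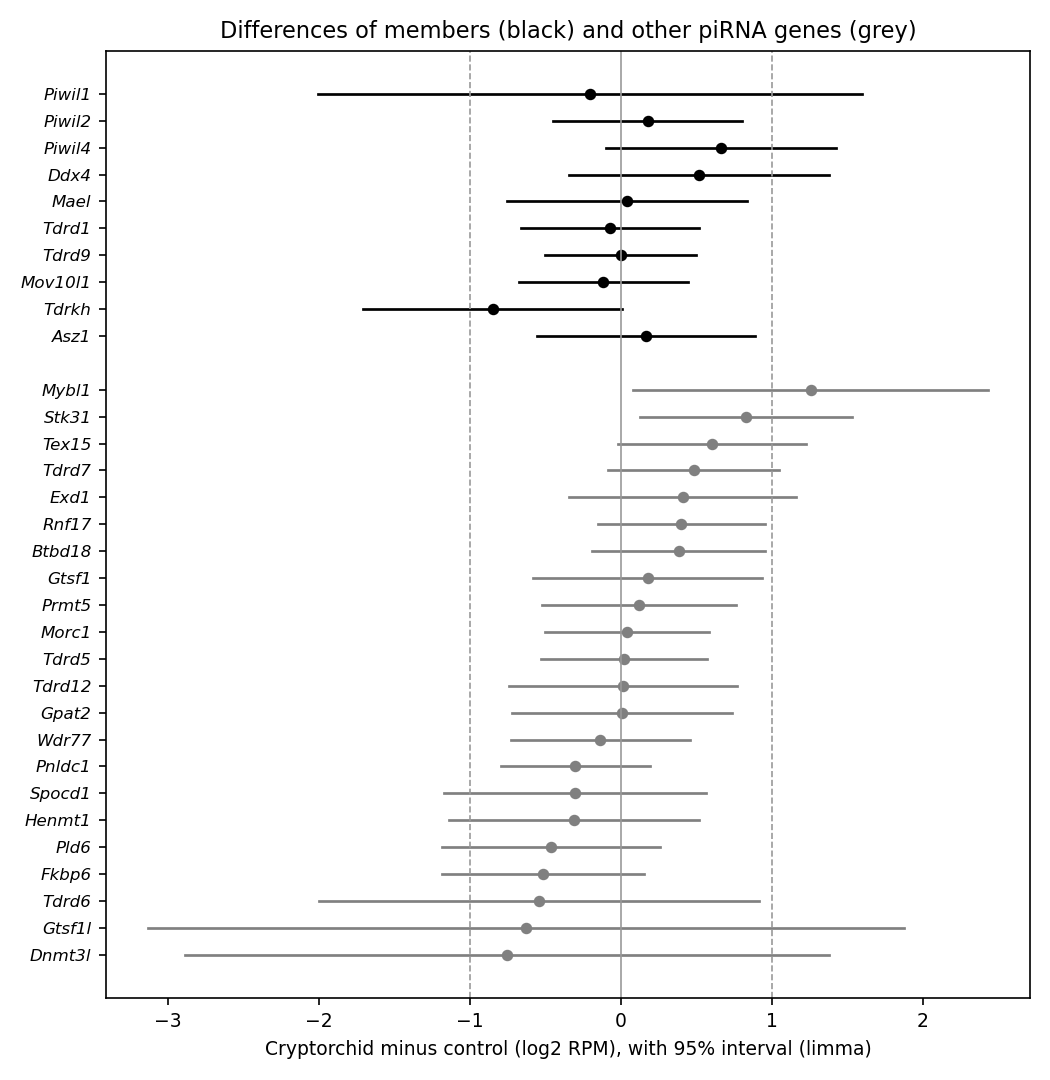
Difference between cryptorchid and control means (x axis, log2 RPM) with 95% intervals from limma, for the 10 members in black and 22 other piRNA pathway genes in grey, with dashed lines at 2-fold. The members run from -0.85 (*Tdrkh*) to 0.66 (*Piwil4*), and only *Mybl1* (1.26) has a point beyond a dashed line.

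Among the genes of the PIWI proteins, *Piwil2* (chr14:70372477-70429383, minus strand) was the most abundant. Its log2 RPM was 9.10, 7.91, 7.98, 7.84 and 8.30 in control libraries 1 to 5, and 7.60 at the lowest, 8.37 at the median and 9.04 at the highest of the cryptorchid libraries. Control library 1 and cryptorchid library 1 were the highest of their groups. The difference was 0.18 ± 0.30 (SE), with a 95% interval of -0.45 to 0.80 (limma, adjusted *P*=0.888).

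*Piwil4* (chr9:14696230-14740733, minus strand) gave 4.80, 4.18, 5.91, 4.98 and 5.89 in the control libraries, and 4.64, 5.91 and 6.52 at the lowest, median and highest of the cryptorchid libraries. Of the 7 cryptorchid libraries, 4 lay above every control library and none below. The difference of 0.66 ± 0.36 (interval -0.10 to 1.42) missed the threshold (limma, adjusted *P*=0.59). It was 0.51 within set 1 and 0.63 within set 2, and an exact two-sided rank sum test gave *P*=0.149. It fell to 0.42 without control library 2. Without control library 3, control library 5 or cryptorchid library 2 it was 0.85, 0.85 and 0.86, with the unadjusted *P*-value of limma under 0.05 and the difference still below 2-fold. A stretch of 118 exon bases of *Piwil4* is shared with *Gm10706*, an antisense gene on the other strand, and reads of that stretch cannot be told apart because Smart-seq2 libraries do not mark strand.

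*Piwil1* (chr5:128702524-128755474, plus strand) was the least abundant member. Control libraries stood at 4.25, 2.07, 4.88, 4.63 and 5.25, and cryptorchid libraries ran from -0.67 through a median of 4.70 to 5.50. The lowest value, in cryptorchid library 2, came from 7 reads, and the other cryptorchid libraries held 89 to 297 reads. The difference was -0.21 ± 0.86 (interval -2.01 to 1.60, limma, adjusted *P*=0.957). Without cryptorchid library 2 it was 0.57, and the ratio of mean RPM gave 0.14 on the log2 scale, so no direction could be given for this gene.

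*Ddx4* (chr13:112598333-112652475, minus strand) encodes the germ cell RNA helicase MVH of the nuage. Its values were 9.71, 8.44, 7.87, 8.62 and 9.11 in control and 7.99, 9.67 and 9.86 at the lowest, median and highest of the cryptorchid libraries. Cryptorchid libraries 2 and 3 lay low, and 3 of the other 5 lay above every control library. The difference was 0.52 ± 0.41 (interval -0.34 to 1.38, limma, adjusted *P*=0.725), and 0.29 without control library 3. Within set 1 it was -0.01 and within set 2 0.85 (limma, unadjusted *P*=0.00094, adjusted *P*=0.0721), below 2-fold in each. With array weights the difference was 0.70 (limma, unadjusted *P*=0.0231), and with the set as a term 0.40 (limma, unadjusted *P*=0.303). The difference between the sets was not tested.

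*Mov10l1* (chr15:88982909-89055152, plus strand), whose product binds and unwinds piRNA precursors, had a small spread within groups. The control libraries held 9.54, 8.84, 8.90, 8.92 and 8.96, and the cryptorchid libraries 8.38 to 9.35 with a median of 8.95. This spread (SD 0.31) was at percentile 2.55 of all genes tested. The mean level was at percentile 99.3, and the spread was not compared with genes of like level. *Mov10l1* differed by -0.12 ± 0.27 (interval -0.68 to 0.44, limma, adjusted *P*=0.917).

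*Mael* (chr1:166201201-166238747, minus strand) encodes Maelstrom, a nuage protein needed for transposon silencing. Values of 9.78, 9.10, 7.82, 9.26 and 9.41 in control faced 8.03, 9.45 and 9.68 at the lowest, median and highest of the cryptorchid libraries. The third replicate was the lowest in each group. The difference was 0.04 ± 0.38 (interval -0.76 to 0.83, limma, adjusted *P*=0.984).

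*Asz1* (chr6:18050964-18109061, minus strand) encodes GASZ, a mitochondrial scaffold of nuage. Control libraries held 7.5, 7.37, 6.42, 7.05 and 8.13, and cryptorchid libraries 6.30 to 7.94 with a median of 7.77. Here too the third replicate of each group was the lowest. *Asz1* differed by 0.16 ± 0.34 (interval -0.56 to 0.88, limma, adjusted *P*=0.909).

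None of the 3 Tudor domain genes among the members was called. All 3 had a lower mean in cryptorchid libraries, but the sign changed under 10 of 28 alternatives for *Tdrd9* and 4 of 28 for *Tdrd1*. No shared direction can be read from them. *Tdrd1* (chr19:56826209-56870012, plus strand), whose product binds MILI in the nuage, stood at 8.36, 7.23, 7.26, 7.84 and 7.62 in control and at 7.02, 7.52 and 8.09 at the lowest, median and highest of the cryptorchid libraries. Cryptorchid libraries 2 and 3 lay below every control library, and the difference was -0.07 ± 0.28 (interval -0.66 to 0.52, limma, adjusted *P*=0.954). *Tdrd9* (chr12:111971559-112068854, plus strand) encodes a Tudor domain helicase known from the nuage of fetal germ cells. Its values were 7.42, 7.34, 7.75, 7.31 and 7.71 in control and 7.12, 7.38 and 8.17 at the lowest, median and highest of the cryptorchid libraries. With a spread within groups (SD 0.31) at percentile 2.51 of all genes, it gave the narrowest interval of the members, from -0.51 to 0.50 around -0.0035 (limma, adjusted *P*=0.998). The mean level of *Tdrd9* was at percentile 94.8, and its spread was not compared with genes of like level.

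*Tdrkh* (chr3:94413273-94434668, plus strand), whose mitochondrial product tethers PIWI proteins while piRNA precursors are trimmed, had the largest difference of the members. It stood at 8.29, 7.34, 7.38, 8.83 and 8.91 in control libraries 1 to 5, and at 7.41, 6.32, 6.27, 7.92, 6.87, 8.45 and 7.85 in cryptorchid libraries 1 to 7. Cryptorchid libraries 2, 3 and 5 lay below every control library, and none lay above them all. The difference was -0.85 ± 0.41 (interval -1.71 to 0.0045), which fell short of 2-fold and just missed the unadjusted threshold (limma, adjusted *P*=0.531), and an exact two-sided rank sum test gave *P*=0.202. It was -1.0 within set 1, which did not meet the rule, and -1.10 within set 2, which did. With the set as a term in the fit the difference was -1.05 ± 0.30 (limma, adjusted *P*=0.175), which met the rule for a lower gene, as did 3.75% of all genes in that fit. It also met the rule without control library 2 (-1.05), control library 3 (-1.04) or cryptorchid library 6 (-1.04), with adjusted *P*-values of 0.567, 0.313 and 0.434. With replicate number as a block it was -1.19, and with the set term plus array weights, chosen after seeing the data, -1.01. In each of these fits *Tdrkh* met the rule and passed an adjusted *P*-value under 0.05 (limma). So did 949 and 1137 of the 16932 genes for that adjusted threshold. Replicate numbers were not taken to mark pairs.

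The exons of *Tdrkh* overlap those of *Oaz3*, a gene on the other strand that encodes an antizyme of spermatids and belongs to the spermatid list. The shared stretch is 340 bases, 5.54% of the 6142 exon bases of *Tdrkh* and 28.0% of the 1213 of *Oaz3*, and it is part of 1 of the 7 *Tdrkh* transcripts. Without strand, reads of this shared stretch cannot be told apart either. *Oaz3* stood at 8.97, 7.55, 9.30, 9.98 and 10.20 in control libraries 1 to 5 and ran from 3.82 through a median of 7.59 to 9.28 in cryptorchid libraries, a difference of -2.32 ± 0.73 that was called lower (limma, adjusted *P*=0.315). Control libraries 4 and 5 were the highest for both genes, and cryptorchid library 6 was the highest of its group for both. The lowest of all for *Oaz3* was cryptorchid library 2, which was next to lowest for *Tdrkh*. In cryptorchid libraries 1, 2 and 5 *Oaz3* lay at 66.5, 14.2 and 41.0 RPM, below *Tdrkh* at 169.6, 80.0 and 116.8 RPM, and in the other 9 libraries above it. The part of *Oaz3* reads, or of spermatid RNA, in the *Tdrkh* difference was not tested.

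**Figure D3:**
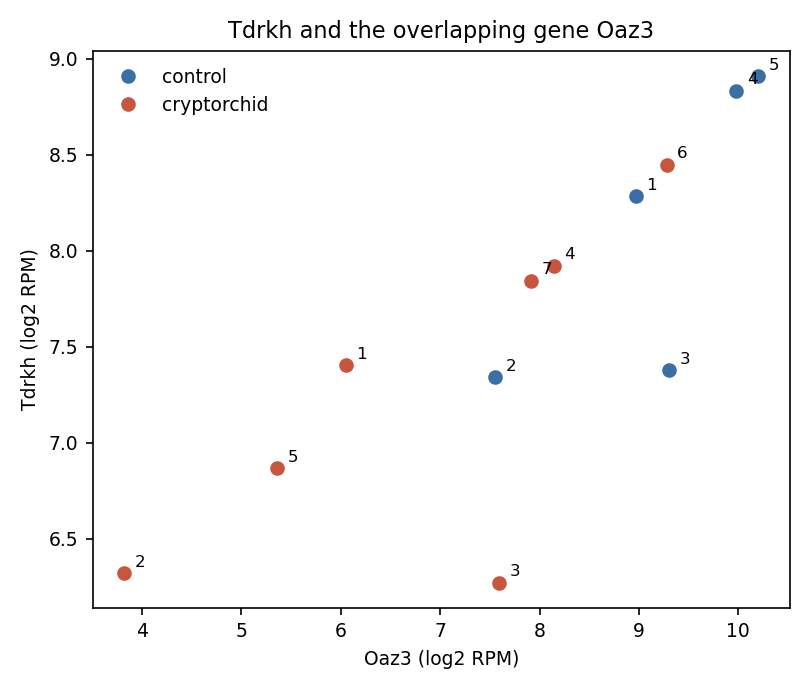
*Tdrkh* (y axis) against *Oaz3* (x axis), both in log2 RPM, for each of 12 libraries, with numbers for replicates. Control libraries 4 and 5 lie at the upper right and cryptorchid library 2 at the lower left, while replicate 3 of each group lies low for *Tdrkh* at its *Oaz3* level.

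The sign of the difference was the same within both sets for 2 of the 10 members, *Piwil4* and *Tdrkh*. The libraries differed from each other over the members as a group. Cryptorchid libraries 2 and 3 were each the lowest of their group for 5 of the 10 genes, and control library 2 was the lowest of its group for 5. Control library 1 was the highest of its group for 5 genes. The difference between groups was smaller than the SD within groups for 8 of the 10 members, the exceptions being *Piwil4* and *Tdrkh*.

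Divided by exon length, the members spanned more than an order of magnitude. The mean level over the 12 libraries was 342 RPM per kb for *Mael*, 198.7 for *Ddx4*, 123.0 for *Mov10l1*, 104.2 for *Asz1* and 68.6 for *Piwil2*. *Tdrkh*, *Tdrd9* and *Tdrd1* followed at 38.6, 38.5 and 37.7 RPM per kb, then *Piwil4* at 14.7 and *Piwil1* at 5.94. *Mael* was above *Ddx4*, *Tdrd1* above *Piwil4*, and *Piwil4* above *Piwil1* in all 12 libraries. *Ddx4* was above *Mov10l1* in 10 of 12, *Mov10l1* above *Asz1* and *Asz1* above *Piwil2* in 9 of 12 each, and *Piwil2* above *Tdrkh* in 10 of 12. *Tdrkh* was above *Tdrd9* in 6 of 12 libraries (3 of 5 control and 3 of 7 cryptorchid), and *Tdrd9* above *Tdrd1* in 7 of 12, so these neighbours had no steady order. The pooled means hide the groups for *Tdrkh*, at 51.4 RPM per kb in control and 29.4 in cryptorchid libraries, beside 38.1 and 38.8 for *Tdrd9*. On this scale *Mael* was at percentile 99.3 of the genes tested, *Piwil2* at 94.3 and *Piwil1* at 47.0. No test was run between genes.

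**Figure D4:**
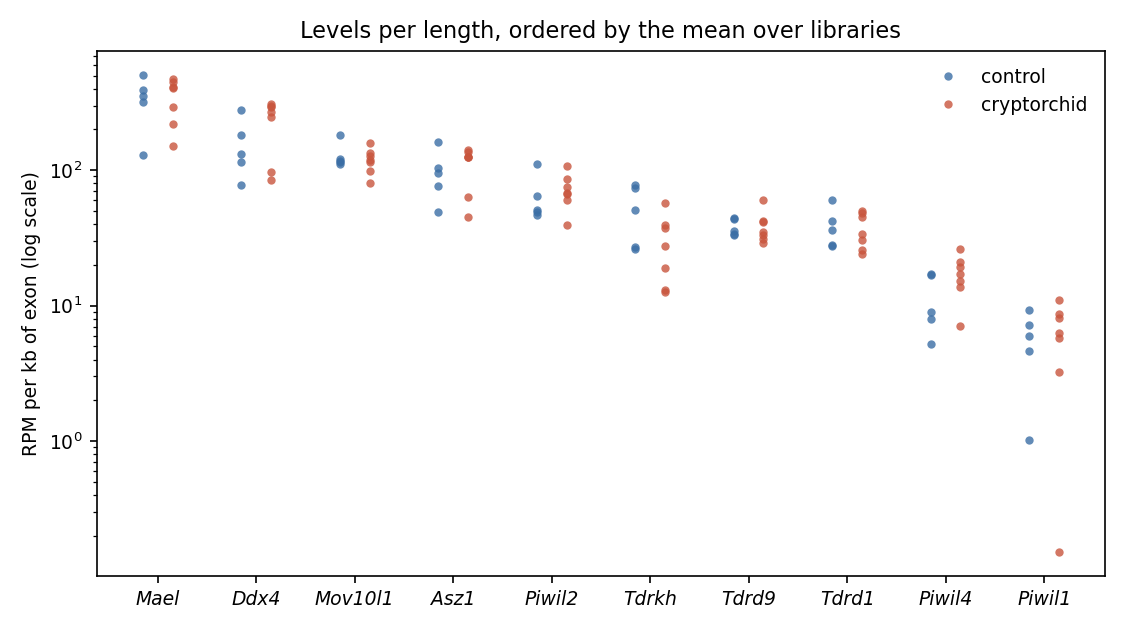
RPM per kb of exon (y axis, log scale) of the 10 members in each control and cryptorchid library, ordered by the mean over the 12 libraries. *Mael* leads at a mean of 342 RPM per kb, *Tdrkh*, *Tdrd9* and *Tdrd1* lie within 37.7 to 38.6, and *Piwil1* ends the order at 5.94.

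Of 22 other genes of the pathway, 1 was called higher (against 3.56% of all genes) and 0 lower, and 13 of 22 had a higher mean in cryptorchid libraries. Their median log2 difference was 0.02, and the range ran from -0.76 for *Dnmt3l* to 1.26 for *Mybl1*. At an unadjusted *P*-value under 0.05, 2 of 22 passed, *Mybl1* and *Stk31*, against 9.48% of all genes, a share near that background. None had groups that did not overlap, and here too the share over all genes was not counted. Intervals lay within 2-fold for 10 of the 22, against 25.3% of all genes. The gene called was *Mybl1*, the gene of A-MYB. It held 2.21, 2.07, 2.17, 2.19 and 0.15 in control libraries 1 to 5, and 1.79, 3.07 and 3.96 at the lowest, median and highest of the cryptorchid libraries, of which 6 of 7 lay above every control library. Its level was low, with 5 to 121 reads in the control and 29 to 172 reads in the cryptorchid libraries. *Mybl1* rose by 1.26 ± 0.56 (interval 0.08 to 2.43, limma, adjusted *P*=0.49), and an exact two-sided rank sum test gave *P*=0.0303. The difference was 0.27 within set 1 and 2.29 within set 2. Set 2 has 2 control libraries, and 1 of them is control library 5, whose value of 0.15 came from 5 reads. The call was lost without control library 5, where the difference was 0.85, and also without any 1 of cryptorchid libraries 1, 4, 5, 6 and 7, where differences ran from 1.10 to 1.27.

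*Stk31*, a Tudor domain kinase gene named here after its values were seen, stood at 7.99, 7.48, 6.94, 7.60 and 7.80 in control and at 7.14, 8.65 and 8.93 at the lowest, median and highest of the cryptorchid libraries. In 5 of the 7 cryptorchid libraries it was above every control library. The difference was 0.83 ± 0.33 (interval 0.12 to 1.53, limma, adjusted *P*=0.447), below 2-fold. An exact two-sided rank sum test gave *P*=0.0732, and the difference was 0.35 within set 1 and 1.11 within set 2, where it met the rule. It also met the rule without cryptorchid library 3 (1.03) and with array weights (1.03). Without control library 3 (0.67) or cryptorchid library 4 (0.74) the unadjusted *P*-value of limma was no longer under 0.05.

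For each PIWI gene, the genes with the most similar pattern over the 12 libraries were listed by Pearson correlation of log2 RPM, as a description. These points share libraries, sets and depth. Nearest to *Piwil1* were *Cdhr4* (*r*=0.98, Spearman rho 0.825), *Nt5dc1* (*r*=0.977, rho 0.783) and *Ttc13* (*r*=0.972, rho 0.776), patterns in which the single low value of cryptorchid library 2 has a large weight. Nearest to *Piwil2* were *Eif4g2* (*r*=0.954, rho 0.972), *Gm28036* (*r*=0.934, rho 0.923) and *Ttc21b* (*r*=0.925, rho 0.972). *Wdr17* (*r*=0.963, rho 0.993), *Gm884* (*r*=0.962, rho 0.979) and *Zfp808* (*r*=0.948, rho 0.965) were nearest to *Piwil4*. None of these was a member of the pathway lists.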

How the data were processed

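RNA-seq values of 12 libraries were deposited as log2 RPM for 21859 genes. Per the labels and the study's methods, the authors trimmed reads with Trim Galore 0.6.6 (quality control with FastQC 0.11.8), aligned them to mm10 with HISAT2 2.1.0 and used SeqMonk to count them on protein-coding genes. Whole reads were recovered from the steps of the deposited log2 values for all 12 libraries (100% whole below 1000 reads, within 0.1 reads). Groups followed the sample titles, and 0 columns belonged to no sample. Replicates differed by 13.5 to 264 times sampling noise over 31 pairs, so none was taken as a repeat.

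The comparison used lmFit and eBayes (with trend) of limma 3.58.1, run in R 4.3.3, over 16932 genes with log2 mean RPM above -1, with Benjamini-Hochberg adjustment over all of them. The step was also run on simulated counts with planted changes larger than 2-fold and no sets of libraries. That run does not measure the power to find differences of the size seen here. The exact two-sided rank sum test enumerated 792 assignments (smallest *P*=0.00253). Positions are GENCODE vM21 and promoters RefSeq. Names in the text followed a rule: all members, every other pathway gene called or without overlap of groups, the 3 nearest genes of each PIWI gene and defining markers. *Stk31*, *Stra8* and *Dnmt3b* were added after their values were seen. The members, lists and motifs were chosen with earlier results of these data known. Alternatives covered scaling, pseudocount, filter, weights, recovered reads, sets of libraries, replicate block and leaving out each library.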

Additional observations from a re-analysis of the deposited data

Results flagged for a closer look

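In 3 of 24 groups of values looked at (10 members and 2 other pathway genes, in control and in cryptorchid libraries), 1 library stood apart from the rest of its group by Dixon's criterion, and chance alone flags about 1 in 20 groups. *Piwil1* in cryptorchid library 2 was at a log2 RPM of -0.67, and the other 6 cryptorchid libraries lay between 3.74 and 5.50. *Mov10l1* in control library 1 was at 9.54, above the other control libraries at 8.84 to 8.96. *Mybl1* in control library 5 was at 0.15, below the other control libraries at 2.07 to 2.21, and this value came from 5 reads.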

How the results depend on the processing

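No member was called higher under any of the alternatives run. The count called lower, 0 in the main test, was 1 (*Tdrkh*) under the replicate block, with the set as a term, in set 2 alone and with the set term plus array weights (chosen after seeing the data), and 0 to 1 with 1 library left out. The *Tdrkh* difference kept its sign in all 28 alternatives (-1.19 to -0.66). Members at an unadjusted *P*-value under 0.05 and any fold (limma) numbered 0 in the main test. The count was 1 (*Tdrkh*) after median centring, quantile normalization, either pseudocount, no filter or voom, where 1575 to 1958 of all genes passed. It was 2 under the replicate block (3759 of all genes), and 3 with array weights (3391) and in set 2 alone (2934). An exact rank sum test with the sets kept apart, also added after seeing the data, gave *P*=0.0533 for *Tdrkh* and *P*=0.113 for *Mybl1*. Other pathway genes called higher, 1 in the main test, numbered 0 under quantile normalization, voom on recovered reads, the replicate block and set 1 alone, 2 with array weights and in set 2 alone, and 0 to 2 with 1 library left out. The share of all genes called higher was 5.21% with array weights, 3.75% in set 2 alone and 2.96 to 4.43% with 1 library left out. Other pathway genes called lower, 0 in the main test, numbered 2 under the replicate block (*Gtsf1l* and *Tdrd6*), where 5.32% of all genes were called lower. The cause was not tested. Of all genes, the share called lower was also 4.16% in set 2 alone and 5.22% with the set term plus array weights. Of all genes called, 60.2% were higher in the main test, 51.5% after median centring and 45.7% after quantile normalization.

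Signs changed under some alternatives for 8 members, and none of these differences was called under any alternative. *Piwil1* was 0.16 with array weights, 0.048 in set 2 alone, 0.14 as ratio of mean RPM and -0.74 to 0.57 with 1 library left out. *Mael* was -0.028 after median centring, -0.14 under the block, -0.055 with the set term, -0.14 in set 1 alone, -0.0026 with the set term and array weights, and -0.28 to 0.22 with 1 library left out. *Tdrd9* was 0.078 under the block, 0.022 with the set term, 0.15 in set 1 alone, 0.024 as ratio of mean RPM and -0.11 to 0.060 with 1 library left out. In set 1 alone *Piwil1* was -1.03, *Piwil2* was -0.049, *Ddx4* -0.0086 and *Asz1* -0.15. *Ddx4* ran from 0.29 to 0.76 with 1 library left out, and *Asz1* was -0.017 under the block and -0.054 to 0.37 with 1 library left out. In set 2 alone *Tdrd1* was 0.0020 and *Mov10l1* 0.0015, and with 1 library left out they ran from -0.18 to 0.10 and from -0.19 to 0.011.

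Replicate numbers are shared by 5 pairs of libraries. Deviations of same-numbered libraries correlated at 0.05 to 0.41, and 8 of 10 libraries correlated best with their own number. The exceptions were the libraries of number 5, at 0.05. That 1 pair was not above the threshold of 0.1, so the pairing was not taken as given for any number. Among same-numbered libraries *Tdrkh* was lower in the cryptorchid library for 5 of 5 numbers, and *Piwil4* was higher for 5 of 5. The block left *Piwil4* at 0.54, with the unadjusted *P*-value under 0.05, as it also was with array weights (0.73). With the replicate block *Tdrkh* was at -1.19 (limma, adjusted *P*=0.00402). The lowest counts behind a value were 7 reads for *Piwil1* and 5 reads for *Mybl1*, each in 1 library.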

Other observations

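The genes most like *Tdrkh* over the 12 libraries, looked up after its values were seen, were *Wdfy1* (*r*=0.946, rho 0.888), *Tpi1* (*r*=0.943, rho 0.972) and *Ugt1a10* (*r*=0.942, rho 0.944), a description with no test. Among differentiation genes of spermatogonia, *Stra8*, which responds to retinoic acid, was called higher (log2 difference 1.09 ± 0.33, limma, adjusted *P*=0.273), and *Dnmt3b*, a de novo DNA methyltransferase, was called lower (-1.20 ± 0.31, adjusted *P*=0.215), while the other 6 genes of that list were not called.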
